A study of Homo sapiens with 3 samples.

Results

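Chromosome 11 was examined for read dosage and DNA methylation in Hep3B, an established human hepatocellular carcinoma line, and in SOX4 knockout lines made from it. SOX4 belongs to the SOX family of transcription factors, and its own locus, on another chromosome, was not analysed here. All CpGs listed for chromosome 11 were taken, 165876 of 3225751 in the 3 libraries together. Of these, 111924 had at least 10 reads in every library and were compared for methylation, out of 2238764 over all chromosomes. The groups were parental Hep3B cells (1 library) and 2 knockout lines, Hep3B SOX4-/- #1 and #2 (1 library each), called line 1 and line 2 here. The knockouts were made with CRISPR/Cas9, and the labels name no other treatment. The authors state that the knockout cells were cultured with puromycin, and do not state this for the parental cells. An effect of that culture cannot be told apart here from one of the knockout. Whether each line was grown from 1 cell was not given in the sources used here. The parental group has no replicate, so the values describe 3 libraries, and no test of the genotype was run.

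Probes were used to enrich DNA fragments that hold CpGs, and these fragments were read after bisulfite treatment. Bisulfite converts cytosines that carry no methyl group, and the methylation level of a CpG is the percentage of its reads that still show a C. The same reads also count DNA. A chromosome part that is present in more copies gives a larger share of the library's reads. Read dosage was taken here as that share, over the autosomes, divided by the share in the parental library, so that 1 means no difference from parental cells. Dosage does not say how many copies the parental cells hold, and more copies in each cell cannot be told apart from a larger share of cells that carry them. The libraries held 104702738 (parental), 96987706 (line 1) and 133170621 (line 2) CpG reads, with median depths of 22, 20 and 27 reads per CpG. Read numbers of a region are sums over its CpGs, here and below, so a read that covers several CpGs is counted at each of them.

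Chromosome 11 carries the imprinted genes of 11p15, developmental regulators such as PAX6 and WT1 on the short arm, and GSTP1 and the cyclin D1 neighbourhood at 11q13. The 11q13 band holds CCND1 (cyclin D1, which drives entry into the cell cycle), FGF19 (a hormone that restrains bile acid synthesis) and FADD (an adaptor of death receptors), and it is amplified in a share of liver cancers. Promoters rich in CpGs are usually free of methylation in normal cells, whereas GSTP1, an enzyme that conjugates glutathione to toxic compounds, is a known target of promoter methylation in liver cancer.

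Promoter sequences are shown for 4 genes that span what was seen on the chromosome. They are GSTP1, a methylated promoter inside the most gained stretch, FADD, an unmethylated promoter of the same stretch, PAX6, the listed promoter with the largest rise, and BDNF, where a fall lay outside these bases. Each is the 250 bases upstream of the start site as RefSeq gives it (GRCh38.p14), written 5′ to 3′ on the gene's strand with CpGs in capitals. The positions are those of the deposited files (GRCh37), found by matching the spacing of the CpGs. This matching used the whole RefSeq promoter entry of 300 bases. Of the CpGs found in the entry or in the files at that place, 100% were in both for GSTP1, PAX6 and BDNF, and 83.8% for FADD.
GSTP1, chr11:67351033-67351282, plus strand: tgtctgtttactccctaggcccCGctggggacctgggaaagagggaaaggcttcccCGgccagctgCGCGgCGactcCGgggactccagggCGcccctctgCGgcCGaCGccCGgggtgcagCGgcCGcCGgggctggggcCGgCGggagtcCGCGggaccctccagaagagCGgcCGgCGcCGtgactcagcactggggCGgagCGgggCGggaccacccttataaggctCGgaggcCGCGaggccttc
FADD, chr11:70049152-70049401, plus strand: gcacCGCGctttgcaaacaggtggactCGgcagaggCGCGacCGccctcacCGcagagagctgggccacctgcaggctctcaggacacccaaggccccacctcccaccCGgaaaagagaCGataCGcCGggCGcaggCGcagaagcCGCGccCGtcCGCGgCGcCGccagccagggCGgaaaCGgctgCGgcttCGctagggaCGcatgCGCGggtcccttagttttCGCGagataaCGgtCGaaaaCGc
PAX6, chr11:31826590-31826839, minus strand: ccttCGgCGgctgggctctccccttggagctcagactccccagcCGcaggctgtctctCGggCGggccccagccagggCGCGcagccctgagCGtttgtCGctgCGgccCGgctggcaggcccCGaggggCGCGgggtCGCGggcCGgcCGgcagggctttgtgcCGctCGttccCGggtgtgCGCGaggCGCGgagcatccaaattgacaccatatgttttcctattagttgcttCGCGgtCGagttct
BDNF, chr11:27743578-27743827, minus strand: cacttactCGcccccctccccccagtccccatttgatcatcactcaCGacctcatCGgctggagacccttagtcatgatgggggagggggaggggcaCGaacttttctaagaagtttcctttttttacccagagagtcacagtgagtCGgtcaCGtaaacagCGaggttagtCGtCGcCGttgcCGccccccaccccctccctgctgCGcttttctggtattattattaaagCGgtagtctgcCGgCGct

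The GSTP1 stretch holds 28 CpGs, of which 9 had the required reads, and their mean level was 97.5% in parental cells, 89.4% in line 1 and 94.2% in line 2. The FADD stretch holds 32 CpGs, and the 28 compared were at 0% in parental cells, 0.51% in line 1 and 1.12% in line 2. The PAX6 stretch holds 28 CpGs, all compared, and its level was 17.8% in parental cells, 36.9% in line 1 and 26.0% in line 2. The 15 CpGs of the BDNF stretch were low in every library, at 5.65%, 4.90% and 4.09%. Both knockout lines were thus above parental cells over the PAX6 stretch and below them over the GSTP1 stretch.

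Reads of chromosome 11 were over-represented in both knockout libraries. The read dosage was 1.31 in line 1 and 1.14 in line 2, the highest of the 22 autosomes in each line. The other 21 autosomes lay between 0.763 and 1.13 in line 1 (median 0.975) and between 0.886 and 1.07 in line 2 (median 0.991). The gain did not cover the whole chromosome. A piecewise constant fit to the dosage of 122 bins of 1 Mb, each with at least 2000 parental reads, split it into 4 segments, and each edge was then placed between neighbouring CpGs. These segments were chosen by dosage, so their dosages are a description.

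Segment 1 ran from the first covered CpG at position 132313 to 65956288, over the short arm, the centromere and the start of the long arm. Its 88638 CpGs gave a dosage of 1.41 in line 1 and 1.19 in line 2. Segment 2, a stretch of 4.38 Mb from 65957000 to 70333199 with 16255 CpGs, had the highest dosage, 1.62 in line 1 and 1.32 in line 2. Segment 3, from 70333210 to 118040702, was at 1.00 in line 1 and 0.987 in line 2. Segment 4, which reached the end of the covered long arm at 134945969, was at 1.03 in line 1 and 1.00 in line 2. Thus, everything before 70333199 was counted as gained (segments 1 and 2, at or above 1.2 in line 1), and the remaining long arm stayed near the parental share in both lines.

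**Figure D1:**
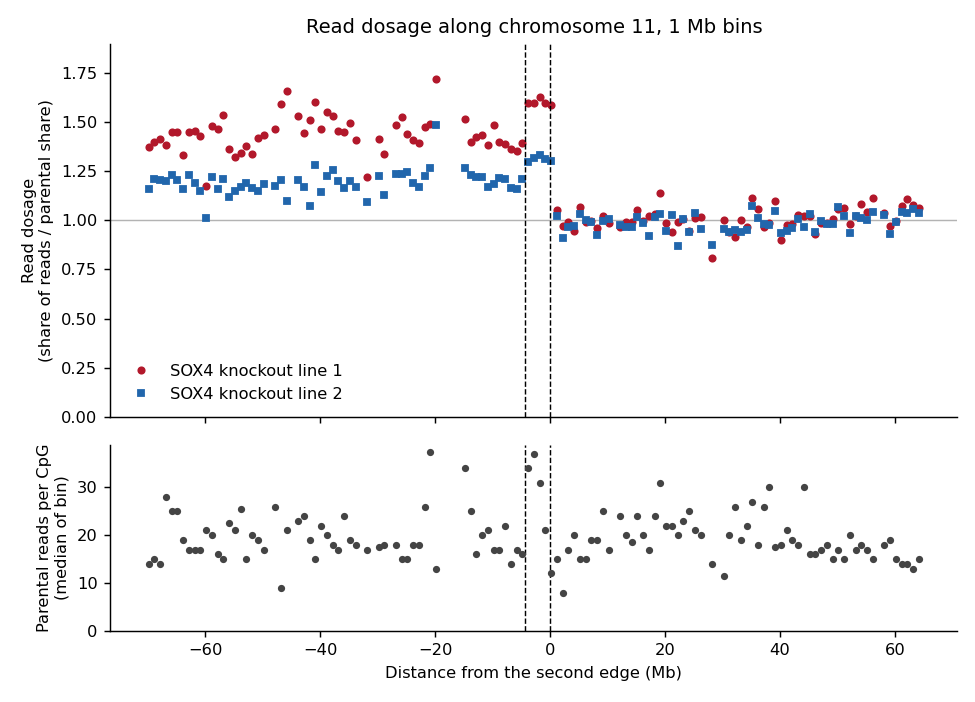
Read dosage of line 1 (circles) and line 2 (squares) in 1 Mb bins of chromosome 11 (top) and the median parental reads per CpG of the same bins (bottom), against the distance in Mb from the second segment edge; dashed lines mark the first and second edge. Only bins with at least 2000 parental reads are drawn. Those that ended before the second edge lay above 1 in both lines, from 1.18 in line 1 and 1.01 in line 2 upward, the bin that holds the edge was at 1.59 and 1.31, and those after it scattered around 1.

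The bins of 1 Mb varied within each segment. Dosage in line 1 was 1.44 ± 0.0921 (SD over 56 bins) in segment 1, with a range of 1.18 to 1.72. In line 2 the same bins gave 1.19 ± 0.0638, from 1.01 to 1.49. In segment 3 it was 0.996 ± 0.0569 over 44 bins in line 1 and 0.977 ± 0.0440 in line 2, and the 15 bins of segment 4 lay between 0.973 and 1.12 in line 1 and between 0.931 and 1.07 in line 2. The lowest bin of segment 1 in line 1 (1.18) thus lay above the highest bin of segment 3 (1.14). Among bins with at least 2000 parental reads, gained and ungained ones therefore did not overlap in line 1. In line 2 they overlapped (1.01 against 1.07). The segments were fitted to these same dosages, so a separation of the bins is partly built in. Bins under 2000 parental reads were left out, among them 2 bins of segment 1 that lay at 0.908 and 0.912 in line 2. A left-out bin of segment 4, from 127000001 to 128000000, lay above 1.18 in line 1. With it, gained and ungained bins overlapped in line 1 too. The 4 whole bins of segment 2 were tightly grouped, at 1.599 to 1.63 in line 1 and 1.30 to 1.33 in line 2. The gain in line 2 was smaller than in line 1 by a similar factor in both gained segments. The excess over 1 in line 2 was 0.458 of that in line 1 in segment 1 and 0.521 in segment 2. Both lines share the parental library as denominator, so these profiles are not independent of each other.

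The second edge, at 70333199, was sharp in both knockout lines. In the 100 kb before it the dosage was 1.73 in line 1 and 1.36 in line 2, and in the 100 kb after it 0.859 and 0.969. Fitted to one line at a time, the last gained CpG was at 70333219 in line 1 and at 70333133 in line 2. Of the RefSeq start sites that could be placed, the nearest on either side were PPFIA1 (a scaffold protein of cell adhesion sites) and SHANK2-AS1 (an antisense RNA of SHANK2). Many start sites could not be placed, so nearer genes may exist, and the edge may lie within a gene. The depth of the parental library changed at the same place. Its median was 29 reads per CpG in the 100 kb before the edge and 7 in the 100 kb after it, while line 1 went from 45 to 5 and line 2 from 50 to 8. Capture efficiency differs between regions, and its part in this step was not tested.

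The first edge, at 65956288, was less well defined. The nearest start sites that could be placed were SF3B2 (a splicing factor subunit) before it and KLC2-AS1 (an antisense RNA of the kinesin light chain gene KLC2) after it. Here too nearer genes may exist, and the edge may lie within a gene. Fitted to one line at a time the first edge fell at 66025506 in line 1 and 65963299 in line 2. The 100 kb before it had a dosage of 1.14 in line 1 and 1.01 in line 2, over 80 CpGs, and the 100 kb after it 1.62 and 1.29, over 657 CpGs. In the 1 Mb before segment 2, line 1 was at 1.39 and line 2 at 1.21. The edge was not found with a doubled penalty on the number of segments. The third edge, at 118040702, separated segments 3 and 4, whose dosages differed little (1.00 and 1.03 in line 1).

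Segment 2 also stood apart within the parental library. Its parental median depth was 31 reads per CpG, against 17 in segment 1, 18 in segment 3 and 17 in segment 4, and its mean depth was 44.1 against 21.4 to 25.6 reads. Of the CpGs of segment 2, 84.2% reached 10 reads in the parental library, against 71.5% to 72.1% elsewhere on the chromosome. Segment 2 is also the part with the most covered CpGs, at 3714 per Mb against 801 to 1348. Within it, 4 bins of 50 kb between 67550001 and 67750000 reached parental medians of 89 to 145 reads per CpG, above every other bin of the segment. The stretch from 67481550 to 67758373, which holds these bins, had a dosage of 1.69 in line 1 and 1.42 in line 2. Its bounds were found by a search on the dosage of line 2, so these values are a description of what chose it. Whether reads there map uniquely was not tested.

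**Figure D2:**
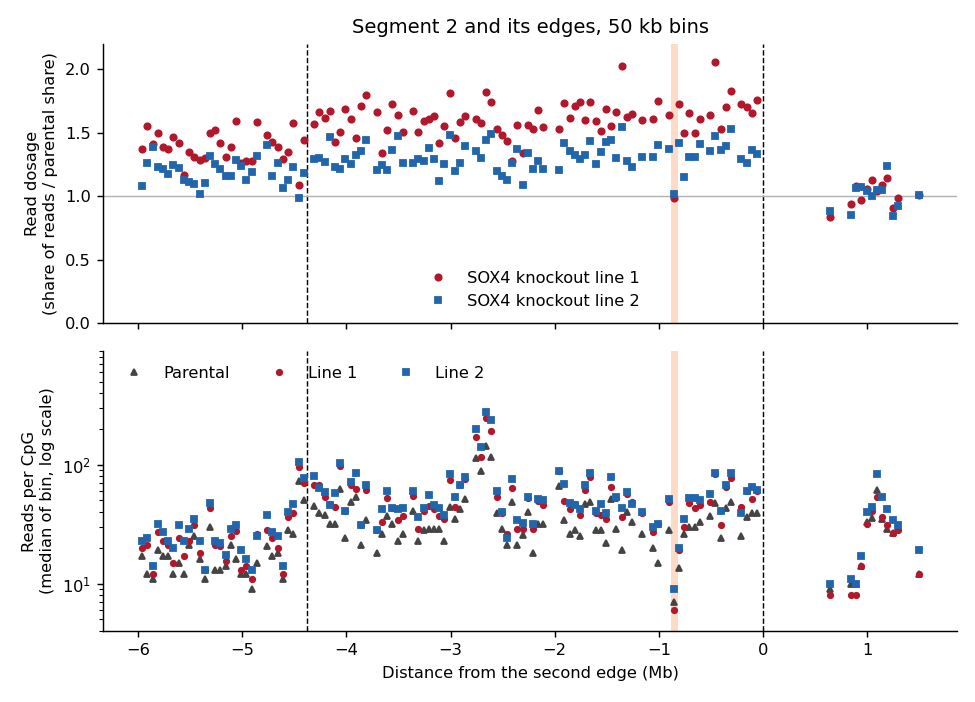
Read dosage (top) and median reads per CpG on a log scale (bottom) in 50 kb bins with at least 2000 parental reads, from 6 Mb before to 1.5 Mb after the second edge; dashed lines mark the first and second edge, the shaded band the ungained interval. Depth fell in all 3 libraries in the band, which was chosen by its dosage of about 1, and low-depth bins just after the second edge had too few reads to be shown.

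Inside segment 2, an interval of 60.7 kb was near the parental share. It was located after the profile had been seen, as the stretch of 50 to 500 kb in segment 2 that differed most in dosage from the rest of the segment, so its dosage is a description of what chose it. It ran from 69451261 to 69512004 and held 632 CpGs. Its dosage was 0.979 in line 1 and 1.02 in line 2. In the 200 kb before it the dosage was 1.65 in line 1 and 1.36 in line 2, and in the 200 kb after it 1.61 and 1.30. The parental depth fell there too, to a median of 7.5 reads per CpG, against 19 in the 200 kb before and 25 in the 200 kb after. Whether capture efficiency or the copy number of the parental cells moved with the dosage there was not tested. The start site of LTO1, which acts in ribosome biogenesis, lay in the interval with a promoter dosage of 0.923 in line 1 and 0.990 in line 2. In line 1 this was the lowest of the 48 measured promoters of segment 2. The counts of this promoter are among those that chose the interval, so its rank follows from that choice. In RefSeq order LTO1 has CCND1 on one side and FGF19 on the other. Neither CCND1 nor FGF19 was placed in the files' coordinates, so whether they lie inside the interval was not determined. The neighbouring FGF3 (a growth factor silent in most adult tissues), FADD and PPFIA1 had promoter dosages of 1.61, 1.97 and 1.77 in line 1 and 1.41, 1.62 and 1.21 in line 2.

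Searched in line 1 alone, the interval had the same end and a start at 69451271, whereas the search in line 2 alone chose the deep stretch from 67481550 instead. Bins of 50 kb scatter more widely than bins of 1 Mb. In segment 1, 9 of 328 such bins were under 1.1 in line 1, and the lowest was at 0.960. In segment 2, 1 of 76 was, at 0.988, a bin that lies almost wholly in the interval itself. The next lowest was at 1.28.

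The gain was similar at methylated and unmethylated CpGs. In segment 1, dosage in line 1 was 1.39 over CpGs under 20% in parental cells, 1.40 over those from 20 to 80% and 1.40 over those above 80%. In line 2 the values were 1.18, 1.18 and 1.17. In segment 2 they were 1.59, 1.63 and 1.64 in line 1 and 1.31, 1.33 and 1.32 in line 2. Promoter dosages come from the same counts that placed the segments, so their medians restate the segment dosages. The median promoter dosage in line 1 was 1.41 in segment 1, 1.62 in segment 2 and 1.02 in the rest of the chromosome. Single promoters overlapped between these parts, from 0.660 to 3.15 in segment 1 and from 0.604 to 1.56 in the rest. The highest, in segment 1, was WT1 (a transcription factor of kidney and gonad development). Read counts summed over its 27 compared CpGs were 393 in parental cells and 1145 in line 1.

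The methylation of the gained segments was then compared with that of the rest of the chromosome, which the choice of segments had not used. Over the gained segments (73723 CpGs) the mean level was 40.2% in parental cells, 36.6% in line 1 and 37.9% in line 2, a knockout mean of 37.3% ± 0.943 (SD, n = 2). Over the rest of the chromosome (38201 CpGs) it was 38.2% in parental cells, 33.3% in line 1 and 35.6% in line 2, a knockout mean of 34.4% ± 1.59. Both lines were thus below parental cells in both parts. Segment 2 was the most methylated, at 49.0%, 45.5% and 46.8%, with 40.7% of its CpGs above 80% in parental cells, against 28.8% in segment 1. The other autosomes had 43.0%, 39.0% and 40.9%.

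The fall was smaller inside the gained segments. Line 1 differed from parental by -3.61 percentage points in the gained segments and by -4.92 points in the rest, a contrast of 1.31 points. Line 2 differed by -2.28 and -2.67 points, a contrast of 0.389 points. Segments 1 and 2 gave nearly the same falls despite their different dosage, -3.64 and -3.50 points in line 1 and -2.29 and -2.23 in line 2. As a yardstick, each of the other 21 autosomes was cut at its middle CpG, and the difference between both parts ranged from -2.05 to 1.73 points in line 1 (median size 0.394) and from -1.18 to 0.999 in line 2 (median size 0.299). The contrasts on chromosome 11 lay within these ranges.

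The rest of the chromosome, not the gained part, was the further from the other autosomes. Over the bins of other autosomes with a dosage within 5% of 1 in both lines (1136 bins), line 1 differed from parental by -4.16 points and line 2 by -2.18 points. Against them the gained segments of chromosome 11 differed by 0.545 points in line 1 and by -0.104 points in line 2, so that the sign of the contrast turned in line 2. The fall in segment 4, at -5.23 points in line 1 and -3.09 in line 2, was larger than that of any other whole autosome in each line (-5.10 and -2.58 points at most). This sets a part against whole chromosomes, which average over their parts. Chromosome 21 as a whole differed from parental by -5.10 points in line 1 and -2.34 in line 2. Its parts before and after the middle CpG differed from each other by -2.05 and -1.18 points. When CpGs were weighted to the same distribution of parental levels, the falls were -3.54 points (gained), -4.92 (rest) and -3.81 (other autosomes) in line 1, and -2.21, -2.67 and -1.93 in line 2. The contrast between the gained segments and the rest thus remained after this weighting.

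**Figure D3:**
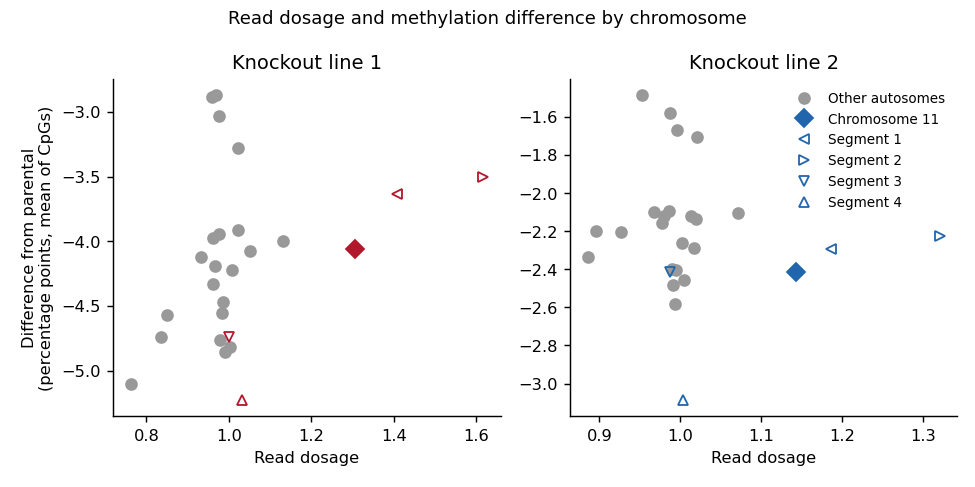
Mean methylation difference from parental (percentage points) against read dosage for each autosome in line 1 (left) and line 2 (right); the filled diamond is chromosome 11, open triangles its 4 segments and grey circles the other 21 autosomes. The gained segments 1 and 2 lay to the right of all other autosomes, at falls within their range. Segment 4, a part set against whole chromosomes, lay lowest.

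The class with the widest contrast to the rest was one of intermediate level in both lines, 40 to 60% for segment 1 and 60 to 80% for segment 2. Not every intermediate class had a wider contrast than the class from 80% upward. Among CpGs at 60 to 80% in parental cells, line 1 fell by 12.8 points in segment 1, 10.6 in segment 2, 15.8 in the rest of the chromosome and 12.9 in other autosomes. In line 2 the same class fell by 7.80, 6.44, 8.48 and 6.37 points. CpGs under 20% in parental cells barely moved, by 0.287, -0.0230 and -0.197 points in line 1 over segment 1, segment 2 and the rest. Part of a fall from a high parental class comes from choosing CpGs by that level, and the regions are therefore compared within a class.

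**Figure D4:**
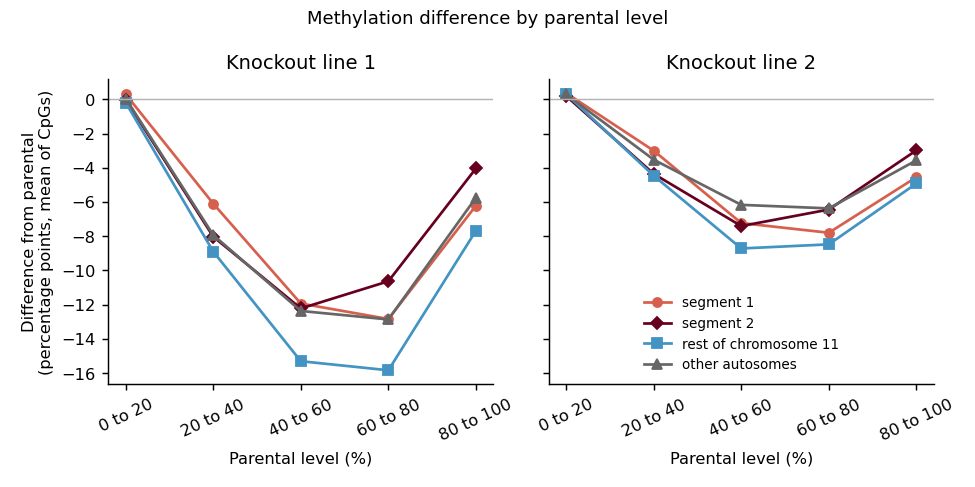
Mean difference from parental (percentage points) in 5 classes of parental level (%) for line 1 (left) and line 2 (right), in segment 1, segment 2, the rest of chromosome 11 and the other autosomes. From 20% upward the rest of chromosome 11 was lowest in every class in both lines.

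The lines also lay closer together inside the gained segments. Line 1 was 1.33 points below line 2 there, 2.25 points below in the rest of the chromosome and 1.95 points below in other autosomes. The fall of line 2 was 0.631 of that of line 1 in the gained segments, 0.542 in the rest and 0.520 in other autosomes.

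Along the chromosome, almost every bin of 1 Mb with at least 100 compared CpGs lost methylation. In line 1, 50 of 51 bins of segment 1, 4 of 4 of segment 2 and 58 of 58 of the rest were below parental, and in line 2, 51, 4 and 57 were. The rest includes here the bin that holds the second edge, whose dosage was 1.59 in line 1 and 1.31 in line 2 and whose level was below parental in both. The largest losses were on the ungained long arm, in bins with few CpGs. From 87000001 to 88000000 the level was 74.8% in parental cells, 47.1% in line 1 and 60.2% in line 2, over 128 CpGs. From 83000001 to 84000000 it was 49.8%, 30.0% and 39.8%, over 141 CpGs. From 84000001 to 85000000 it was 58.2%, 36.5% and 50.8%, over 103 CpGs. In each of these bins line 1 was lowest and line 2 between it and the parental cells, and the dosage of both lines was 0.922 to 1.02. Over 113 bins, dosage and methylation difference were nearly unrelated, with Pearson's r of 0.0697 in line 1 and -0.0727 in line 2, a description over bins of the same libraries.

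**Figure D5:**
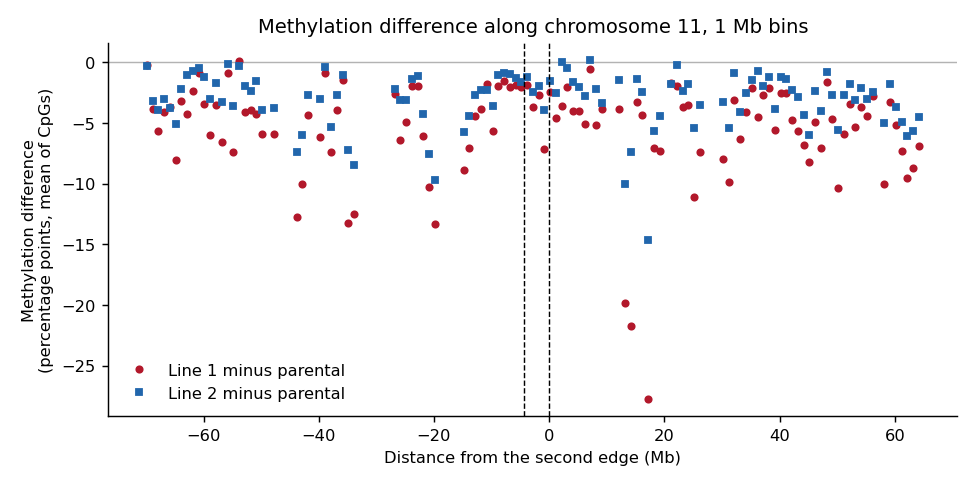
Mean methylation difference from parental (percentage points) in 1 Mb bins with at least 100 compared CpGs for line 1 (circles) and line 2 (squares), against the distance in Mb from the second edge; dashed lines mark the first and second edge. Nearly all points lay below 0 on both sides of the edge, and the lowest, at -27.7 points in line 1, lay on the ungained side.

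Single CpGs were compared between libraries by a Fisher exact test on methylated and unmethylated reads, called at a Benjamini-Hochberg adjusted p under 0.05 over all CpGs and a difference of at least 25 points. In line 1, 3180 CpGs of the gained segments were lower (4.31%) and 1886 of the rest (4.94%), against 4.46% of all CpGs compared. Higher CpGs numbered 430 and 196, against a background of 0.599%. In line 2, 696 were lower in the gained segments (0.944%) and 279 in the rest (0.730%), against 0.713% of all, and 72 and 18 were higher, against 0.0831%. In both lines together, 604 CpGs of the gained segments (0.819%) and 224 of the rest (0.586%) were lower, against 0.6% of all, and 47 and 12 were higher, against 0.0581%.

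The counts in line 2 and in both lines were thus relatively higher in the gained segments, although the mean fall there was smaller. The median depth over compared CpGs was 27 reads in parental cells, 36 in line 1 and 41 in line 2 in the gained segments, and 27, 25 and 34 in the rest. With each CpG thinned to its smallest depth over the 3 libraries, 300 CpGs of the gained segments (0.407%) and 105 of the rest (0.275%) were lower in both lines, against 0.287% of all. The share was thus higher in the gained segments with and without thinning. This thinning evens depth between the libraries at each CpG but not between regions, so it cannot set aside a difference in depth between them. At a difference of at least 50 points the order turned, with 98 (0.133%) and 56 (0.147%). These tests compare libraries and not genotypes, and copies made by PCR are counted as separate reads.

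Windows of 1 kb with at least 5 compared CpGs, called at 25 points of difference in their mean with no p-value, were compared next. In line 1, 148 of 3751 windows in the gained segments (3.95%) and 97 of 1876 in the rest (5.17%) were lower, against 4.15% of all 113184 windows, and 22 and 3 were higher, against 0.416%. In line 2, 25 and 18 were lower (background 0.628%) and 5 and 2 higher (background 0.0901%). In both lines, 21 windows of the gained segments (0.560%) and 15 of the rest (0.800%) were lower, against 0.551% of all. The order turned at a difference of at least 10 points (11.5% and 11.1%) and for windows with 10 or more CpGs (5 of 1840 and 0 of 768). Windows higher in both lines numbered 4 in the gained segments and 0 in the rest, against 0.068%. The gained segments were near the background for lower windows. The rest was above it in each line, within the range of the other 21 autosomes (2.33% to 5.66% in line 1, 0.329% to 1.27% in line 2).

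Between the knockout lines, 8 windows of the gained segments (0.213%) and 15 of the rest (0.800%) were lower in line 1 than in line 2, against 0.786% of all, and 5 and 0 were higher, against 0.116%. The share in the gained segments was below that of each of the other 21 autosomes, which ran from 0.342% to 1.92%. With 5 reads as the minimum, the shares were 0.368% (17 of 4623) in the gained segments and 1.24% (32 of 2587) in the rest. The other autosomes were not counted in that setting. Median depth over compared CpGs was 36 reads (line 1) and 41 (line 2) in the gained segments, against 29 and 39 in other autosomes. Whether this depth lowered the share was not tested, and a part is again set against whole chromosomes. With CpGs thinned to the smallest depth, a choice made after the data had been seen, the counts were 10 and 20. With 10 or more CpGs in a window they were 1 of 1840 and 0 of 768. This comparison does not use the parental library except to select CpGs and to place the segments.

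By the smaller of both lines' differences, 10 windows of the chromosome are named, 5 that rose and 5 that fell most. The gene given is the nearest start site that could be placed, and nearer genes may exist. The largest rise, from 61463001 to 61464000 in segment 1, was 58.7% in parental cells, 91.9% in line 1 and 84.9% in line 2 over 8 CpGs. A second rise, from 655001 to 656000, lay between DRD4 (a dopamine receptor) and DEAF1 (a transcription factor). It went from 32.5% in parental cells to 97.6% in line 1 and 58.5% in line 2 over 14 CpGs. All 14 of its CpGs were called in line 1 and 0 in line 2, so that line 1 stood apart there from both other libraries.

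The window from 2012001 to 2013000 held the start site of LINC01219, a non-coding RNA gene of 11p15, and rose from 4.95% to 30.7% in line 1 and 32.3% in line 2 over 6 CpGs, with 78 to 90 reads per library and 0 CpGs called. In segment 2, the window from 70246001 to 70247000, beyond the start of PPFIA1, was well covered, with 774 to 1162 reads over 8 CpGs. Its level was 21.4% in parental cells, 63.4% in line 1 and 47.1% in line 2, and 7 and 5 of its CpGs were called. The fifth, from 77834001 to 77835000 in segment 3, was nearest ALG8 (a glucosyltransferase of N-glycan assembly), at 34.1%, 78.6% and 58.5%. Of its 6 CpGs, 5 were called in line 1 and 1 in line 2. In 4 of these 5 windows line 1 rose further than line 2.

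The largest fall was in segment 4, from 120504001 to 120505000, 69.4 kb from the start of GRIK4 (a kainate receptor subunit). It had 92 to 115 reads per library, and of its 5 CpGs, 5 were called in line 1 and 0 in line 2. The next, from 87430001 to 87431000 in segment 3, went from 95.8% in parental cells to 29.5% in line 1 and 54.4% in line 2. It lay in the bin with the largest loss. With 67 to 145 reads per library, 3 of its 5 CpGs were called in line 1 and 1 in line 2. In segment 1, the window from 63262001 to 63263000, on the side of SLC3A2 (the heavy chain of amino acid transporters) and PLAAT3 (a phospholipase), went from 83.0% to 14.4% and 44.6%. With 115 to 147 reads per library, 4 of its 5 CpGs were called in line 1 and 1 in line 2. The window from 2767001 to 2768000, in 11p15 between TSSC4 and KCNQ1DN, went from 82.4% to 36.9% and 45.6%. With 145 to 252 reads per library, 5 of its 7 CpGs were called in line 1 and 1 in line 2. From 27911001 to 27912000 the level went from 70.5% to 9.91% in line 1 and 33.9% in line 2, with 300 to 429 reads, and all 5 CpGs were called in each line. In every one of these 5 falls, line 2 lay between parental cells and line 1. Windows next to the segment edges differed from parental by -4.38 to 4.27 points.

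Promoters were measured as the mean of CpGs from 1 kb upstream to 500 bp downstream of the start site. Of 1893 RefSeq promoters of the chromosome, 1033 had enough CpGs to be placed and 793 were, which gave 648 genes with at least 5 compared CpGs. Most were unmethylated in parental cells, with 291 of 356 in segment 1, 41 of 48 in segment 2 and 206 of 244 in the rest under 20%. Their median difference was -0.19 points in segment 1, -0.25 in segment 2 and -0.11 in the rest in line 1. No promoter rose by 25 points or more in either line. In line 1, 4 of 648 fell by that much, and in line 2, 0 did.

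These 4 promoters were CD44 (a receptor of hyaluronan) and TPH1 (which makes serotonin) in segment 1, and CCDC81 and KIRREL3 (a cell adhesion molecule of neurons) in the rest. They are named after their values were seen. CD44 was at 70.7% in parental cells, 43.5% in line 1 and 58.4% in line 2 over 44 CpGs, and 12 of its CpGs were called in line 1. TPH1 was at 43.8%, 18.5% and 22.1%, CCDC81 at 66.7%, 35.3% and 51.7%, and KIRREL3 at 43.9%, 18.3% and 22.1%. Each was lowest in line 1.

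Genes often silenced by methylation in tumours had 5 of 14 members measured, with none past 25 points. GSTP1 was the most methylated, at 87.1% in parental cells, 76.9% in line 1 and 78.5% in line 2 over 43 CpGs, of which 5 were called in line 1 and 1 in line 2. It therefore stayed mostly methylated in a segment whose dosage was 1.62 and 1.32. WT1 was at 34.7%, 27.6% and 36.8%, and OPCML, a cell adhesion molecule, at 3.14%, 2.08% and 0.54%. The median difference of the list was -1.76 points in line 1 and -0.88 in line 2, against -0.16 and -0.09 for all measured promoters of the chromosome.

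At 11q13, 4 of 10 listed genes were measured and none passed 25 points. FGF3 was at 30.0% in parental cells, 21.9% in line 1 and 23.2% in line 2. FADD, LTO1 and PPFIA1 were at or below 1.00% in every library, whatever their dosage. Their list median was -0.31 points in line 1 and -0.33 in line 2. At 11q22, in the ungained part, 3 of 8 were measured and none passed. YAP1, a coactivator of the Hippo pathway, was at 6.19%, 5.67% and 6.25%. The apoptosis inhibitor BIRC3 was at 6.88%, 4.01% and 3.89%, and BIRC2 was under 0.4% in each. Promoter dosages in line 1 were 0.854 for YAP1, 0.719 for BIRC3 and 0.835 for BIRC2, with list medians of -0.51 points in line 1 and 0.06 in line 2.

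Of the developmental list, 6 of 18 were measured and none passed 25 points. PAX6, an eye and pancreas regulator, rose the most of all listed genes, from 31.2% to 44.1% in line 1 and 40.2% in line 2, and 5 of its 57 CpGs were called in line 1 and 0 in line 2. NTM, a neuronal adhesion molecule, was at 36.2%, 23.5% and 30.5%, and BDNF, a neurotrophin, at 27.1%, 15.6% and 21.7%, with 8 of 66 CpGs called in line 1. The list median was -3.61 points in line 1 and 0.40 in line 2.

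Of the liver and lipid genes, 6 of 17 were measured, with medians of -0.03 and 0.02 points and none past 25. CPT1A, which carries fatty acids into mitochondria, lay in segment 2 and was at 8.61%, 3.53% and 8.00%. DHCR7, the last enzyme of cholesterol synthesis, was at 3.80%, 6.51% and 4.35%, and CAT (catalase) at 1.27%, 2.95% and 0.46%. Of the DNA repair and chromatin genes, 10 of 14 were measured and none passed, with medians of -0.06 and -0.22 points. EED, a Polycomb subunit, was at 2.70%, 0.73% and 0.59%, FEN1, a flap endonuclease, at 0.66%, 2.79% and 1.26%, and MEN1, a tumour suppressor, at 1.85%, 1.16% and 1.17%. Of the globin genes 0 of 5 and of the olfactory receptor genes 1 of 376 were measured, the latter being OR52N2 at 22.03%, 12.2% and 17.9%.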

How the data were processed

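Bisulfite capture sequencing (TruSeq Methyl Capture EPIC) was available for 3 libraries. For each cytosine of a CpG, the authors deposited counts of reads (total, in CpG context, methylated) without normalization, and the methylation level as a fraction, which equalled methylated over context counts. Per the labels the build is GRCh37 (hg19). The aligner, caller, filters and duplicate handling were not given in the sources used here. Undetected PCR duplicates would make intervals and p-values too small.

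Strands were summed per CpG, named by the position of its G. Context counts gave read dosage. Segments were fitted by least squares to log2 dosage of both lines with a Bayesian information criterion, and edges were refined within 2 Mb by binomial likelihood. No annotation of the files' build was used. RefSeq promoters (GRCh38.p14) with 8 or more CpGs were instead placed by matching the files' CpG spacing. At least 50% of the CpGs found in the promoter or in the files at that place had to be in both. This share had to lie 25 percentage points above the runner-up. Fisher exact tests with Benjamini-Hochberg adjustment compared libraries. Scripts were tested on simulated data. Intervals cover counting error only. Software was numba 0.67.0, scipy 1.17.1, pandas 2.3.3 and numpy 2.4.6 under Python 3.11.15.

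The members, lists and tests were chosen with earlier results of these data known. Named windows were the 5 largest rises and 5 largest falls, by the smaller of both lines' differences, and those next to each edge. For each gene list the 3 members with the largest mean difference were named. The minimum of 2000 parental reads per bin, the placing thresholds, the cut of other autosomes at their middle CpG, the ungained interval and the printed sequences were choices made with the values in view. Alternatives covered bin width, penalty, scaling, depth minimum, weighting, thinning, thresholds and leaving out each knockout line. RefSeq gene order was used only for neighbours.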

Additional observations from a re-analysis of the deposited data

How the results depend on the processing

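For 38 results 224 alternative values were computed. Compared with the SD between both lines, or with 1.5 times a count, 137 were unmoved, 86 moved further and 1 reversed. The end of the gained part lay between 70333133 and 70333219 in every setting, with 70333219 in line 1 alone and 70333133 in line 2 alone. The edge between segments 1 and 2 lay between 65963299 and 66025506 with either line alone and was not found with bins of 2 Mb (3 segments) or a doubled penalty (2 segments). Either line alone gave 5 to 6 segments, with extra edges inside segment 1. With the median autosome set to 1, the gained dosage was 1.49 in line 1 and 1.23 in line 2. The cause of the moves below was not tested, unless fewer CpGs or another threshold enters by construction.

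The contrast between gained segments and rest was 2.24 points in line 1, 1.15 in line 2 and 1.69 in their mean with read-weighted means. Against the dosage-neutral bins of other autosomes it was 0.545 points in line 1 and turned to -0.104 in line 2. In the other settings it ran from 1.04 to 1.40 points in line 1 and from 0.165 to 0.507 in line 2. Either line alone gave 0.389 to 1.31 points as the knockout mean. No paired analysis was possible because only 1 library of parental cells could be paired.

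Mean levels in the gained segments (parental, line 1, line 2) were 41.9%, 38.2% and 39.6% with a minimum of 5 reads, 37.3%, 33.6% and 35.0% with 20 reads, 37.3%, 34.0% and 35.2% weighted by reads, and 50.02%, 45.8% and 47.3% over windows. In the rest they were 40.2%, 35.2% and 37.5%, then 35.3%, 30.5% and 32.7%, then 35.8%, 30.3% and 32.6%, and 42.6%, 37.0% and 39.4%. Both lines stayed below parental cells in each.

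CpGs higher and lower in both lines were 75 and 759 (gained) at 10 points. At 50 points they were 5 and 98 in the gained segments and 2 and 56 in the rest, at an adjusted p under 0.01 28 and 302 against 3 and 109, and after thinning 28 and 300 against 4 and 105. Leaving out 1 line gave 72 to 430 higher and 696 to 3180 lower CpGs in the gained segments and 18 to 196 and 279 to 1886 in the rest.

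Windows higher, lower, and lower in line 1 than in line 2 were 1, 5 and 1 in the gained segments and 0, 0 and 0 in the rest with 10 or more CpGs. They were 1, 9 and 3 against 1, 4 and 4 with 20 reads, 9, 31 and 17 against 2, 26 and 32 with 5 reads, 51, 430 and 258 against 9, 209 and 204 at 10 points, and 0 of each in both parts at 50 points. Read weighting gave 1 higher window in the rest, and thinning 2 in the gained segments. Leaving out 1 line gave 5 to 22 higher and 25 to 148 lower windows in the gained segments and 2 to 3 and 18 to 97 in the rest. With 5 reads the smaller difference was 33.3 points for the window at 61463001 and 13.8 points for that at 2012001.

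With 1 library a group and medians of 20 to 27 reads per CpG, single CpGs and windows of 5 to 8 CpGs carry wide counting error, and no value has a replicate in parental cells. Promoters placed with at least 75% of CpGs shared, a choice made with the values in view, changed no statement on their number or share under 20%.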
